A study of Mus musculus with 4 samples.

Results

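The transcripts described here encode the islet peptide hormones other than insulin: Iapp, Gcg, Sst, Ppy, Pyy and Ucn3. These 6 genes were chosen by symbol among the 23235 gene symbols of the deposited tables, and each was found as 1 row with the status OK in every table. Expression was measured by RNA sequencing of poly-A RNA from isolated pancreatic islets of C57BL/6 mice. The mice were either wild type (WT) or carried the KR mutation, a knock-in allele of Foxo1 known to put arginine in place of lysines that are acetylated in this transcription factor. There were 4 groups, each with 1 library: WT and KR islets after fasting, and WT and KR islets after refeeding. The sample titles name 48 h of fasting and, for the refed groups, 6 h of food, while the extraction protocol gives a fast of 24 h. Per that protocol, islets from 3 mice of each genotype were put together, so that a library is a pool of animals and no group has a replicate. The sources used here give neither sex nor age of the mice.

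Islets release several peptide hormones, each made as a longer precursor, cut inside secretory granules by prohormone convertases and, for some, amidated at the end of the chain. Amylin, the product of Iapp, and urocortin 3, the product of Ucn3, come mainly from beta cells in the adult mouse and are stored and released with insulin. Glucagon (Gcg) comes from alpha cells and raises blood glucose, and somatostatin (Sst) comes from delta cells and restrains the release of both insulin and glucagon. Pancreatic polypeptide (Ppy) marks the PP cells, and peptide YY (Pyy), its relative, is made in PP cells and in part of the alpha and delta cells.

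All 6 hormone transcripts were detected at high levels, and their order was the same in each of the 4 libraries. Levels are given in FPKM, fragments scaled to the length of the transcript and to the size of the library. An order between genes therefore also depends on the lengths used in that scaling. Iapp was the most abundant, followed by Gcg, Ppy, Pyy, Sst and Ucn3, and the bounds of neighbours in this order did not overlap in any library. The lower bounds used here mirror the deposited upper ones around each value. Among all measured symbols, Iapp ranked 2 behind Ins2 in 3 libraries, and ranked 1 in fasted KR, where Ins2 had no valid value. Gcg ranked 2 or 3, Ppy 3 or 4, Pyy 5 or 6 and Sst 12 to 14, while Ucn3 ranked between 164 and 242. The bounds lay within 0.257% to 2.78% of each value, on 5177 to 607396 implied fragments per gene and library. They cover the counting of fragments and not the differences between mice or the lengths used for scaling. Gcg had more implied fragments than Iapp when fasted, at 490581 against 449402 in WT and 607396 against 591996 in KR. It had fewer than Iapp when refed.

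**Figure D1:**
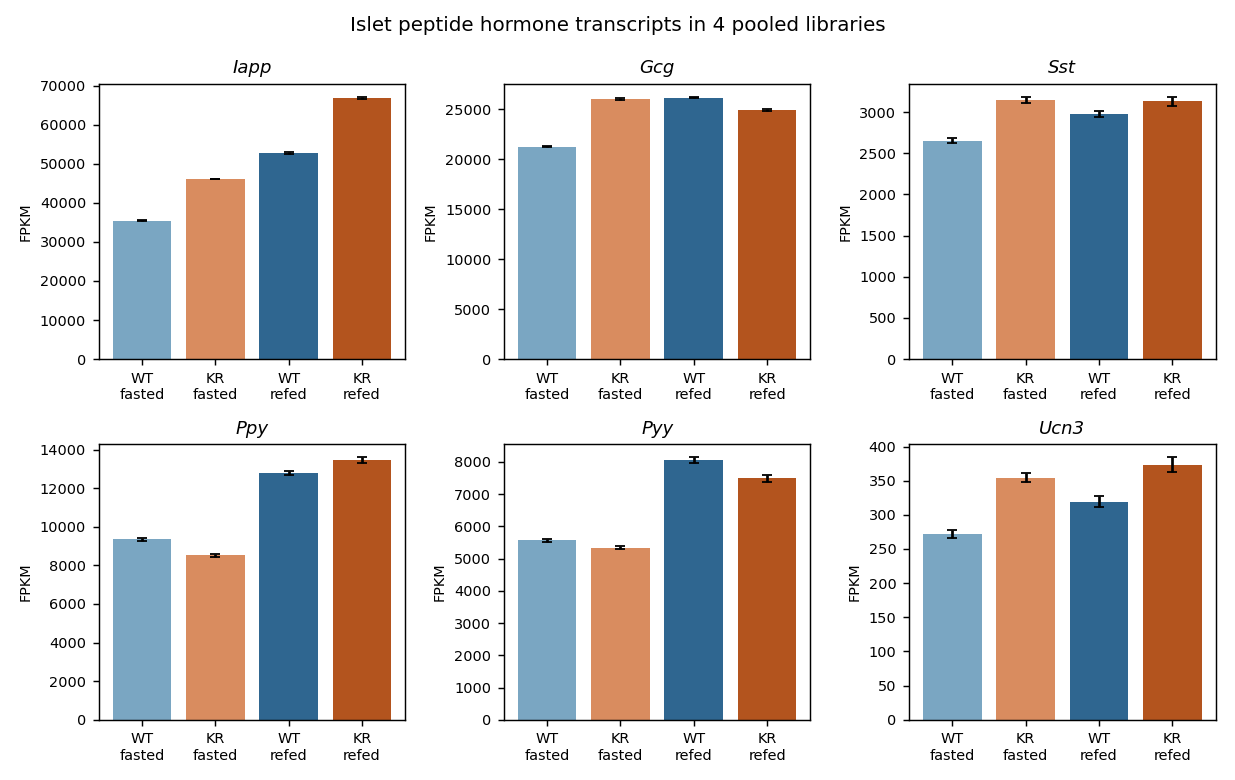
FPKM (y axis, from 0, a separate scale for each gene) of the 6 hormone genes in the 4 pooled libraries (x axis). Error bars reach to the deposited upper bound and by the same distance below the value. Iapp, Ucn3 and Sst stood higher in KR than in WT in each feeding state. Iapp, Ucn3, Ppy and Pyy stood higher in refed than in fasted islets in each genotype.

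Iapp was higher in KR islets and higher after refeeding. Its FPKM was 35463 in WT and 46126 in KR when fasted, and 52784 and 66975 when refed. The fasted WT library was the lowest and the refed KR library the highest, and none of the bounds overlapped. KR stood 30.1% above WT in the fasted pair and 26.9% above in the refed pair, while refeeding stood 48.8% above fasting in WT and 45.2% above in KR.

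The effect of each factor was fitted with limma on log2(FPKM + 1), with genotype and feeding state as additive terms, over the 11953 genes whose mean FPKM reached 1. The 4 libraries leave each gene with 1 residual degree of freedom, so that the p-values rest largely on the spread of other genes. The residual of a gene comes from the difference between its genotype ratios in the fasted and refed pooled libraries. It does not measure a spread between replicate pools or mice, and neither do the standard errors below. Across genes, 0.602% of those tested were called higher in KR and 0.661% lower at an adjusted p under 0.05, and 27.7% were called higher and 29.2% lower after refeeding. In either direction these were 1.26% between genotypes and 56.9% between feeding states. Of the 6 hormone genes, 2 were called higher and 0 lower in KR, and 4 were called higher and 0 lower after refeeding. A call after refeeding was thus common among all genes, and a call between genotypes was rare. The median fitted change of the 6 was 0.14 for genotype, beside -0.04 over all tested genes, and 0.33 for feeding, beside -0.01. Iapp rose in KR by 0.36 ± 0.05 on the log2 scale (SE, limma, 4 libraries; adjusted p = 0.0145) and with refeeding by 0.56 ± 0.05 (adjusted p = 5.42e-05). Over 7 alternative settings, Iapp kept its genotype call in 5 and its feeding call in 6. In bulk islets a larger number of cells of a type and more RNA per cell cannot be told apart, here or in the results that follow.

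Ucn3 encodes urocortin 3, a ligand of the receptor encoded by Crhr2 and, in mouse islets, a signal from beta cells to delta cells. Its FPKM was 272 in WT and 354 in KR when fasted, and 319 and 374 when refed. Both KR libraries lay above both WT libraries, with no overlap of their bounds. The KR level was 30.3% above WT in the fasted and 16.9% above in the refed pair, and the difference of 0.30 ± 0.06 on the log2 scale was near the threshold in limma (adjusted p = 0.0491). The change with refeeding, 0.15 ± 0.06 on the log2 scale, was called as narrowly (adjusted p = 0.0478). In WT the refed level was 17.5% above the fasted one and in KR 5.41% above, a log2 ratio of 0.08 in KR that became 0.0013 by the sum scaling named next. The feeding call was lost with the libraries scaled to the sum of genes other than insulin and these hormones (change of 0.06, adjusted p = 0.302), without a mean-variance trend (adjusted p = 0.145) and with no filter on low values (adjusted p = 0.374). Without that trend the genotype calls of Iapp (adjusted p = 0.191) and Ucn3 (adjusted p = 0.254) were lost as well.

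Iapp and Ucn3 did not keep a fixed proportion. Within a library, where scaling between libraries plays no part, Iapp exceeded Ucn3 130.5-fold in fasted WT (95% interval from the bounds 127.8 to 133.3) and 130.2-fold in fasted KR (127.8 to 132.6). The ratio was 165.3 in refed WT and 179.3 in refed KR. Refeeding therefore went with a larger difference in Iapp than in Ucn3 in each genotype. Against insulin, Iapp exceeded Ins1 8.21-fold in WT and 5.79-fold in KR when fasted, and 15.1-fold and 5.49-fold when refed, so that both KR libraries lay below both WT libraries. Iapp was 0.289 of Ins2 in WT when fasted, and 0.435 in WT and 0.333 in KR when refed, and this ratio could not be had in fasted KR.

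The genes of the NPY family, Ppy and Pyy, lie next to each other on chromosome 11 of mouse build mm9, at 101961245 to 101962614 and 101967991 to 101969090, a gap of 5376 bases, and both were higher after refeeding. The FPKM of Ppy was 9362 in WT and 8517 in KR when fasted, and 12774 and 13455 when refed. That of Pyy was 5564 in WT and 5339 in KR when fasted, and 8058 and 7486 when refed. For each gene both refed libraries lay above both fasted libraries. With refeeding Ppy rose by 0.55 ± 0.06 on the log2 scale (limma, adjusted p = 0.000127) and Pyy by 0.51 ± 0.05 (adjusted p = 6.91e-05), and each call held in 6 of 7 alternative settings. The refed level of Ppy was 36.4% above the fasted one in WT and 58.0% above in KR, and that of Pyy 44.8% and 40.2% above.

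Neither gene passed the genotype test. Ppy in KR stood at 0.91 of its WT level when fasted and at 1.053 of it when refed, with a fitted difference of -0.03 ± 0.06 on the log2 scale (limma, adjusted p = 0.856). Its sign turned when the libraries were rescaled by the median of ratios, to 0.01, or by the sum of other genes, also to 0.01. Pyy in KR stood at 0.96 of its WT level when fasted and at 0.929 when refed, at -0.08 ± 0.05 (adjusted p = 0.457). The ratio of Ppy to Pyy within a library was 1.68 in WT and 1.60 in KR when fasted, and 1.59 and 1.798 when refed. The refed KR value (95% interval 1.77 to 1.83) lay above those of the other libraries.

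The other 2 hormones passed neither test. Gcg is the precursor gene of glucagon, and of GLP-1 where the prohormone convertase of Pcsk1 cuts it. Its FPKM was 21258 in WT and 26030.5 in KR when fasted, and 26161 and 24882 when refed, so that the fasted WT library stood lowest and the other 3 lay close together. In KR against WT its ratio was 1.22 in the fasted pair and 0.951 in the refed pair. Refed against fasted the ratio was 1.23 in WT and 0.956 in KR. The fitted differences were 0.11 ± 0.08 for genotype (limma, adjusted p = 0.551) and 0.12 ± 0.08 for feeding (adjusted p = 0.238), both on the log2 scale.

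Sst had an FPKM of 2652 in WT and 3151 in KR when fasted, and 2978 and 3131 when refed. Here too the fasted WT library stood lowest, and the bounds of the 2 KR libraries overlapped. Sst was 18.8% higher in KR than in WT in the fasted pair and 5.14% higher in the refed pair, with a fitted difference of 0.16 ± 0.06 on the log2 scale that did not pass (limma, adjusted p = 0.224). Its change with refeeding was 0.08 ± 0.06 (adjusted p = 0.267), made up of a log2 ratio of 0.17 in WT and -0.01 in KR. With limma-voom on the implied fragments both Gcg (adjusted p = 0.00494) and Sst (adjusted p = 0.00266) were called higher in KR. Limma-voom also called Gcg higher with refeeding (adjusted p = 0.00203), while scaling by the sum of other genes brought its feeding change to 0.03 (adjusted p = 0.801).

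The ratio of Gcg to Sst stayed between 7.95 and 8.79 in the 4 libraries, while the ratio of Gcg to Ppy was 2.27 in WT and 3.06 in KR when fasted, and 2.05 and 1.85 when refed. The alpha and delta cell hormones were thus closer to a fixed proportion than glucagon and pancreatic polypeptide were. No test of this difference can be made with 1 library per group. None of the 6 genes differed 2-fold in any pair of libraries. Over all tested genes 0.243% did so between genotypes when fasted and 0.368% when refed, and 3.51% did so between feeding states in WT and 2.33% in KR.

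**Figure D2:**
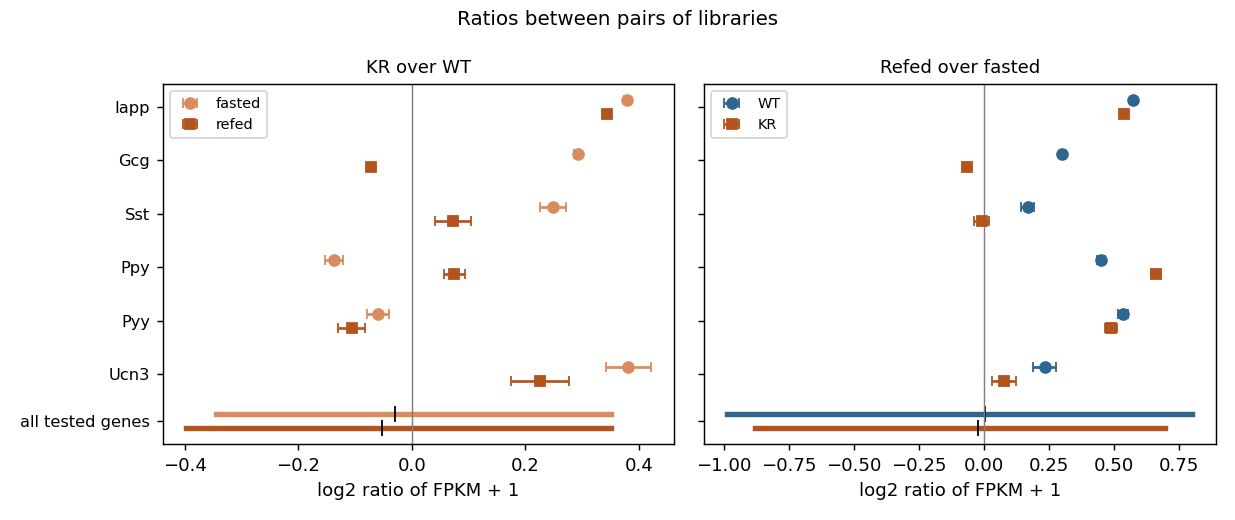
Log2 ratios of FPKM + 1 (x axes) for each hormone gene (y axis) between pairs of libraries, KR over WT at left and refed over fasted at right, with 95% intervals from the deposited bounds, which cover counting error only. Bars at the bottom span the central 95% of the 11953 tested genes with a black tick at their median, and Gcg and Ppy lie on opposite sides of 0 in the fasted and refed genotype ratios.

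The share of the FPKM sum held by these 6 genes was lowest in fasted WT and highest in refed KR. They made up 13.4% of the FPKM sum in WT and 15.9% in KR when fasted, and 16.6% and 18.8% when refed, with Ins2 left out of the sum in every library because it had no value in fasted KR. Iapp alone ran from 6.39% in fasted WT to 10.8% in refed KR. In those libraries Gcg held 3.83% and 4.01% and Ucn3 0.049% and 0.0602%, and both were highest in fasted KR, at 4.61% and 0.0628%. Within the sum of the 6 genes Iapp held 47.6% in fasted WT and 57.6% in refed KR, and Gcg held 28.5% and 21.4%.

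**Figure D3:**
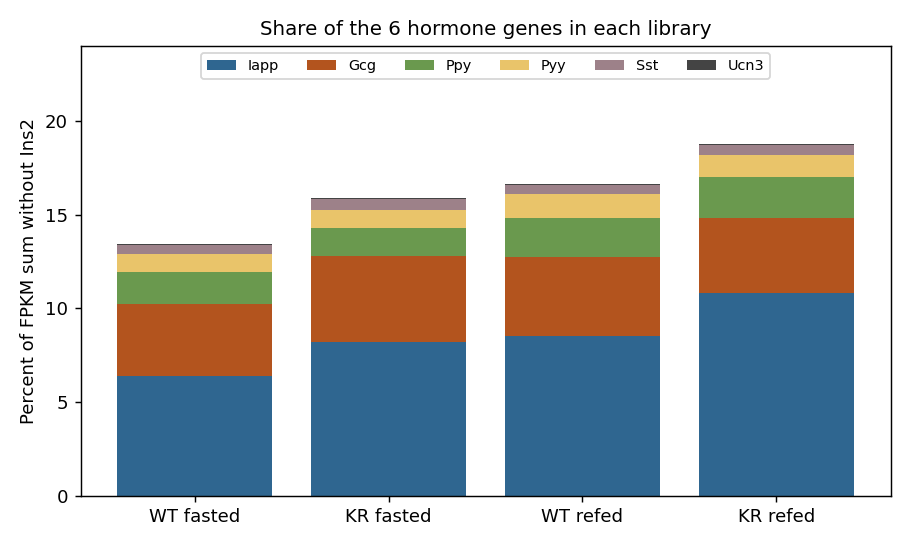
Percent of the FPKM sum without Ins2 (y axis) held by each of the 6 hormone genes, stacked, in the 4 pooled libraries (x axis). The stack grows from 13.4% in fasted WT to 18.8% in refed KR, and most of the growth is in Iapp.

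The 6 transcripts share little sequence. In the GENCODE M21 transcripts the longest run of bases shared by any pair of the 6 genes was 12, between Iapp and Pyy, whereas Ins1 and Ins2 share a run of 56. Iapp, on chromosome 6 at 142246945 to 142252339 in mm9, lies inside the span of Slco1a5, a transporter gene on the opposite strand, with 0 shared exon bases in GENCODE M21. The FPKM of Slco1a5 was 2.07 to 4.28. In the deposited tables the other 5 overlapped no row. Gcg lies on chromosome 2 at 62312587 to 62321710, Sst on chromosome 16 at 23889667 to 23890930 and Ucn3 on chromosome 13 at 3939934 to 3944595. The annotated coding transcripts have 2 exons in Sst and Ucn3, 3 in Iapp, 4 in Ppy and Pyy and 6 in Gcg.

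The 250 bases before the start sites of the 4 hormone genes called after refeeding are shown here, from RefSeq on GRCm38.p6, a later build than the mm9 of the expression tables. They are printed 5′ to 3′ on the strand of the gene, so that the neighbours Ppy and Pyy and the genes of the beta cell can be compared. Capitals mark matches, on either strand, to E-box letters (CANNTG), to TATAAA or to any of 3 further motifs named after the sequences.
Iapp, chr6:142298175-142298424, plus strand: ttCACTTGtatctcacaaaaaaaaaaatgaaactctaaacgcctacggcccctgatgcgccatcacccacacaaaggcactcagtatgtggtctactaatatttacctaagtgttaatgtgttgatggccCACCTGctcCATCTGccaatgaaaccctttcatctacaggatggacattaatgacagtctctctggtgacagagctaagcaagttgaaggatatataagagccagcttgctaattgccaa
Ucn3, chr13:3945350-3945599, minus strand: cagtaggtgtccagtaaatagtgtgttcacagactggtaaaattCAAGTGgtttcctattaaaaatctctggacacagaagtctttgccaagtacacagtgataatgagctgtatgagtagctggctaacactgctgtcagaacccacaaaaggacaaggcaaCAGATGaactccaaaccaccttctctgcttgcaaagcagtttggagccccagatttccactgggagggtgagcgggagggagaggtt
Ppy, chr11:102101320-102101569, minus strand: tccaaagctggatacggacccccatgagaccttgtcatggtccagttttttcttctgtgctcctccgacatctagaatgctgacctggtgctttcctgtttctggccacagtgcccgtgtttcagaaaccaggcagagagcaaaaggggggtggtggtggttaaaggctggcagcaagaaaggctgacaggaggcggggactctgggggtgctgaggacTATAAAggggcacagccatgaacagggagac
Pyy, chr11:102107833-102108082, minus strand: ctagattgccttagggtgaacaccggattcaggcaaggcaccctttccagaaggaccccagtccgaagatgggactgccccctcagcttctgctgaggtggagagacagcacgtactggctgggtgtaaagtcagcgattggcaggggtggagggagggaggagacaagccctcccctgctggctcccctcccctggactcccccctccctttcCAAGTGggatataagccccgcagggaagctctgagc

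The 3 further motifs had no match in these 4 windows. The FoxO element GTAAACA was present in 3.17% of 32851 promoter windows of this length and in 0 of the 7 windows of the hormone genes, in which Pyy has an alternative start. The A-box, bound by homeodomain factors, was read as the exact letters TAATTA. These letters were present in 4.84% of all windows and in 0 of the 7. The cyclic AMP response element TGACGTCA, through which the somatostatin gene is known to be induced, was present in 1.55% of all windows and among the hormone genes in Sst, 48 to 41 bases before the start site. E-box letters were present in 66.2% of all windows. They were matched 3 times in Iapp and in Gcg, 2 times in Ucn3, 1 time in Sst and in each Pyy window, and 0 times in Ppy. TATAAA, present in 12.4% of all windows, was matched in Ppy 31 to 26 bases before the start site and 2 times in Gcg. These matches describe letters in a window and not sites of binding. Shorter or variant forms of a motif were not counted, so a window without a match may still hold such a form.

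Each of the 6 hormones was the dominant member of its peptide family in the islet libraries, or shared that place with another of the 6. In the calcitonin family, Adm2, the gene of adrenomedullin 2, had an FPKM of 28.3 in WT and 19.8 in KR when fasted, and 9.79 and 5.59 when refed. It thus ran opposite to Iapp, falling by 1.55 on the log2 scale with refeeding (limma, adjusted p = 4.52e-06) and by 0.60 in KR (adjusted p = 0.0113). Calca, the gene of calcitonin and CGRP, rose with refeeding by 0.57 ± 0.09 (adjusted p = 0.000968), at an FPKM of 3.46 to 6.51. Adm had an FPKM of 0.19 to 1.2, and Calcb was listed at 0 in all 4 libraries.

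The relatives of glucagon were near 0: Vip reached 1.72, Sct 1.23 and Adcyap1 0.0402, while Gip and Ghrh were listed at 0 throughout. The fitted fall of Vip with refeeding, -0.72 ± 0.26 (limma, adjusted p = 0.0432), is made up of values of 1.36 in WT and 1.72 in KR when fasted, and 1.22 and 0.0695 when refed, so that its size rests on the refed KR library. Cort, the relative of somatostatin, was at or under 0.195. Npy, the third gene of its family, had an FPKM of 3.66 to 4.85 and did not pass the feeding test (limma, 0.09 ± 0.13 on the log2 scale, adjusted p = 0.549). In the CRF family, Crh and Ucn were listed at 0 and Ucn2 was at or under 0.0707, so that Ucn3 was the single ligand gene of the family above an FPKM of 1.

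**Figure D4:**
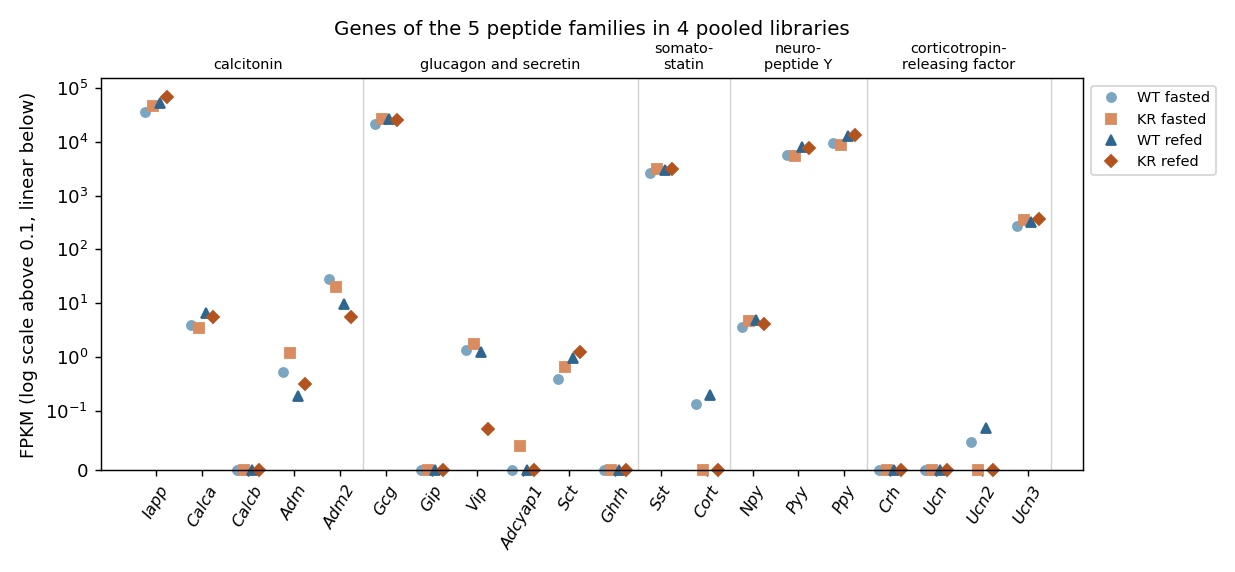
FPKM (y axis, logarithmic above 0.1 and linear below) of all genes of the 5 peptide families (x axis) in the 4 pooled libraries, 1 symbol per library. Iapp, Gcg, Sst, Ppy, Pyy and Ucn3 stand at 272 or higher in each library, and the other genes of these families at 28.3 or lower.

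Many receptors for these hormones were at low levels. Of 22 receptor and accessory genes in the tables, 14, or 63.6%, had an FPKM under 1 in every library, beside 46.4% of 23046 symbols with values in all libraries, and 3 of these were listed at 0 throughout. Glp1r, which encodes the GLP-1 receptor of beta cells, had the highest level, at an FPKM of 112 to 123, and passed neither test. The FPKM of the glucagon receptor gene Gcgr was 20.7 to 23.1. Of the somatostatin receptor genes, Sstr3 was the most abundant, with an FPKM of 66.4 in WT and 58.3 in KR when fasted, and 41.1 and 41.2 when refed, and fell with refeeding by 0.59 ± 0.07 on the log2 scale (limma, adjusted p = 0.000161). Gipr, the gene of the GIP receptor, rose by 0.25 ± 0.07 (adjusted p = 0.0163). Of the 7 receptor genes tested, 1 thus rose and 1 fell with refeeding, and 5 did not pass, which makes 28.6% called beside 56.9% of all tested genes. Between genotypes 0 of the 7 passed, 1 had an unadjusted p under 0.05 in limma, and limma-voom called 0. Over all 11953 tested genes 1955 had such a p between genotypes, and limma-voom called 749. The urocortin 3 receptor gene Crhr2 had an FPKM of 0.235 to 0.481, and the amylin receptor gene Calcr was at or under 0.0281.

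Genes of prohormone cutting and trimming, of the granins and of peptide breakdown were read as 1 list. Of 13 tested, 7 rose and 3 fell with refeeding, and 1 rose and 0 fell in KR. With refeeding this is 76.9% called beside 56.9% of all tested genes, and between genotypes 7.69% beside 1.26%. Between genotypes 7 had an unadjusted p under 0.05 in limma and limma-voom called 7. The counts over all 11953 tested genes were 1955 and 749. Pcsk1, the convertase of insulin and GLP-1, had an FPKM of 91.6 in WT and 102 in KR when fasted, and 153 and 161 when refed, and rose by 0.69 ± 0.06 on the log2 scale (limma, adjusted p = 2.94e-05). Pcsk1n, which encodes proSAAS, an inhibitor of that convertase, fell by 0.60 ± 0.09 (adjusted p = 0.000831). The carboxypeptidase gene Cpe, which trims the cut ends, fell by 0.23 ± 0.05 (adjusted p = 0.00505), and Pam, the amidating enzyme of amylin and the NPY family peptides, stayed at an FPKM of 203 to 210 and did not pass. Qpct rose by 0.47, Dpp4, a protease that degrades GLP-1, by 0.39 and Scg2 by 0.31. In KR the convertase gene Pcsk2, which acts on proglucagon, proamylin and proinsulin, was the one called, at 0.32 ± 0.05 (adjusted p = 0.029).

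Of the 25 transcription factors listed for hormone genes, 20 were tested. Between genotypes 0 passed in limma, 7 had an unadjusted p under 0.05, and limma-voom called 6. Over all 11953 tested genes 1955 had such a p, and limma-voom called 749. With refeeding 6 rose, 7 fell and 7 did not pass, so that 65% were called, near the 56.9% of all tested genes. Isl1 rose by 0.96 ± 0.06 on the log2 scale, Rfx6 by 0.70 ± 0.07, Pax6, a factor of islet hormone genes, by 0.67 ± 0.06 and Pdx1, a beta-cell factor, by 0.44 ± 0.09. Atf3, a stress factor, fell by 1.76 ± 0.14 and Insm1 by 1.23 ± 0.06.

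Markers of each hormone's cell type were read beside the hormone. Among 11 tested genes listed for alpha cells other than Gcg, 0 passed between genotypes (limma, 3 at an unadjusted p under 0.05, 4 called by limma-voom). Over all 11953 tested genes 1955 had such a p, and limma-voom called 749. With refeeding 3 of the 11 rose, Gc, Tmem27 and Ttr, and 3 fell, Irx1 and Irx2 among them, which makes 54.5% called beside 56.9% of all tested genes. The FPKM of Tmem27 was 372 in WT and 475 in KR when fasted, and 612 and 686 when refed, a pattern unlike that of Gcg. Whether the listed genes are confined to alpha cells was not tested. The medians of the 11 were 0.17 in the fasted and 0.03 in the refed genotype pair, beside 0.29 and -0.07 for Gcg itself. Of 5 tested delta-cell genes other than Sst, Rbp4 rose in KR by 0.50 ± 0.07 (limma, adjusted p = 0.0113) and with refeeding by 0.36 ± 0.07. The other 4, Hhex, the factor of delta cells, among them, passed neither test. This makes 20% called between genotypes beside 1.26% of all tested genes, and 20% with refeeding beside 56.9%. Of 5 tested genes of PP and epsilon cells other than Ppy and Pyy, Fxyd3 rose with refeeding by 0.98 ± 0.06 (adjusted p = 1.31e-05), and its FPKM of 23.1 in WT and 27.2 in KR when fasted stood against 48.2 and 52.3 when refed. The other 4 passed neither test, Ghrl, the gene of ghrelin, at an FPKM of 1.59 to 4.71 among them. For this list 20% was called with refeeding beside 56.9% of all tested genes, and 0% between genotypes beside 1.26%.

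Of 13 tested beta-cell genes other than Iapp and Ucn3, 5 rose and 0 fell in KR, and 7 rose and 0 fell with refeeding. Between genotypes this is 38.5% of the list, beside 1.26% of all tested genes. In limma 10 genes had an unadjusted p under 0.05 and limma-voom called 10, beside 1955 and 749 of all 11953 tested genes. With refeeding 53.8% of the list was called, near the 56.9% of all tested genes. Their median log2 ratio of KR to WT was 0.48 when fasted and 0.14 when refed, beside 0.38 and 0.34 for Iapp and 0.38 and 0.23 for Ucn3. Among other peptide genes, Pdyn, the gene of prodynorphin, had an FPKM of 7.05 in WT and 11.8 in KR when fasted, and 9.08 and 13.6 when refed. It rose in KR by 0.61 ± 0.08 (limma, adjusted p = 0.0105) and was the 1 gene of 11 tested in that list to pass between genotypes. This makes 9.09% called beside 1.26% of all tested genes. Limma-voom called 3 of the 11 between genotypes, beside 749 of all 11953 tested genes. With refeeding 3 of the 11 rose, Gast, Npff and Pdyn, and 4 fell, Apln, Vgf, Cartpt and Chga, which makes 63.6% called beside 56.9% of all tested genes. Limma-voom called 4 of the 11 with refeeding, beside 7345 of all 11953 tested genes. The FPKM was low in Gast (0.469 to 2.24), Npff (0.863 to 2.88), Apln (0.654 to 1.76) and Cartpt (1.2 to 2.61). It was 11.2 to 20.5 in Vgf and 4176 to 4963 in Chga.

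Markers of other cells also moved with the groups, and their part in the hormone results was not tested. The summed FPKM of 13 acinar genes was 45.2 in WT and 52.4 in KR when fasted, and 62.8 and 75.8 when refed, most of it from Cela1. The 3 tested ones rose with refeeding, beside 27.7% of all tested genes called higher. Of the defining acinar genes, Prss1 reached 0.153 and Cpa1 0.201. Ctrb1 was at 0 in WT and 0.838 in KR when fasted, and at 0.993 and 1.62 when refed, and Prss2 was at 0 in both fasted libraries, and at 0.0909 and 1.63 when refed. Amy2a5, a further acinar gene of the list, had no valid value in any library. That of 8 endothelial genes was 31.4, 23.1, 21.3 and 18.7 in the same libraries, that of 7 stromal genes 39.4, 40.4, 26.1 and 34.0 and that of 7 duct genes 512, 488, 604 and 547, most of it from Krt7. Of 8 immune genes, Cd74, H2-Aa, H2-Ab1 and Cd79a rose in KR, which makes 50% called beside 1.26% of all tested genes. With refeeding 0 rose and 3 fell, H2-Ab1 by 1.12, Cd74 by 0.94 and Cd68 by 0.35 on the log2 scale. This makes 37.5% called beside 56.9% of all tested genes. The immune list summed to 104, 140, 75.4 and 93.8 in the same order of libraries. The libraries held 11074655 to 26407138 implied fragments, and the refed ones were shallower, at 0.683 of the depth of fasted WT in WT and 0.418 in KR.

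The genes with the most similar pattern were found as those with the smallest Euclidean distance to each hormone in centred log2(FPKM + 1) over the 4 libraries, among 8515 genes whose mean FPKM reached 5. With 4 libraries this measure describes likeness and cannot test it. Nearest to Iapp were Tlr2, Aard and Nme5, at distances of 0.0987 to 0.106 log2 units. Nearest to Ucn3 were Camk1g, Chst11 and the granin gene Scg3, at 0.0466 to 0.0606. Fah, Ilvbl and Sncb were nearest to Gcg, at 0.0364 to 0.062, and Cplx2, Cadps and Vipr1 were nearest to Sst, at 0.0393 to 0.0467. For Ppy these were Rps19, Commd5 and Il13ra1, at 0.0212 to 0.033, and for Pyy Vta1, Uba6 and Ndufc1, at 0.0147 to 0.0211.

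None of the hormone genes was among the 3 nearest of another. The closest pair was Gcg and Sst, at a distance of 0.11, with 41 genes nearer to Gcg than Sst was. Ppy and Pyy were 0.15 apart and Sst and Ucn3 0.16 apart, while the other 12 pairs were at least 0.22 apart. Iapp was at least 0.41 from each of the other 5, and its pattern, higher in KR and higher after refeeding by like amounts in both pairs, was matched by none of them.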

How the data were processed

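Islet RNA of 4 pooled libraries was sequenced. The tools named are bcl2fastq 1.8.4 and TopHat2 2.0.4, and the build is mm9, per the submitters' processing notes. The authors deposited FPKM values with lower and upper bounds and a status for each gene, per the file headers. The sources used here do not name the program that made them or the library total. Rows with the same symbol were summed, and a symbol had a value where the status of all its rows was OK, and 1 was added to the first base of each locus. The distance from FPKM to the deposited upper bound was read as 2 standard errors, and lower bounds were set at the same distance below. The squared ratio of FPKM to the standard error gave the implied fragments, of which 73.9% to 74.6% lay within 0.05 of a whole number below 100. Intervals cover counting error only.

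The additive model was fitted with limma 3.58.1 (R 4.3.3) using a mean-variance trend and 7.58 prior degrees of freedom and Benjamini-Hochberg adjustment over 11953 genes. It assumes 1 genotype effect for fasted and refed islets. The log2(FPKM + 1) scale understates changes of low genes. The fit was tested on simulated data with genotype changes only, so that calls after refeeding were not covered. The estimated prior varied between draws, and false calls made up 3.4% to 20.4% of all calls. This share exceeded the adjusted threshold in 4 of 6 draws. Calls, and those near the threshold most of all, are therefore uncertain. Alternatives were a pseudocount of 0.1, no filter, 2 other scalings, no trend, a robust prior and limma-voom on the implied fragments. The members and gene lists were chosen with earlier results of these data known. Genes are named if they are hormone genes or of their families, if they are list members past the threshold or 2-fold apart (at most 6 per list by size of change), or if they are among the 3 nearest in pattern. List members named outside this rule were chosen after their values were seen. Some list members are not reported here. Pairwise ratios have no test. Tables were handled in Python 3.11.15.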

Additional observations from a re-analysis of the deposited data

Results flagged for a closer look

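The genotype difference of Gcg pointed up in the fasted pair and down in the refed pair, each beyond the deposited bounds, and the refed minus the fasted log2 ratio was -0.36. The refed ratio of -0.07 lay near the median of all tested genes in that pair, -0.05, and became -0.0157 with scaling by the median of ratios and -0.0109 by the sum of other genes. Seen the other way, the refeeding change of Gcg was up in WT and down in KR, with the same difference of -0.36. Ppy was lower in KR when fasted and higher when refed, a difference of 0.21. None of these differences was tested, since each group has 1 library. Over all tested genes the median size of this difference was 0.11, and 92.7% of genes had a smaller one than Gcg and 76.7% a smaller one than Ppy.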

How the results depend on the processing

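No paired analysis was possible because each group has 1 library, and leaving out a library leaves no residual degree of freedom. Between genotypes 151 genes were called, against 0 with no filter on low values (1918 at an unadjusted p under 0.05, limma), 5 without trend, 228 with a robust prior and 749 with limma-voom. Of the hormone genes 2 were called, against 0 with no filter, 0 without trend and 4 with limma-voom. With no filter the 6796 genes called after refeeding became 0 (6207 at an unadjusted p under 0.05), and the 4 hormone genes 0. Of the genotype calls 47.7% were higher in KR, against 62.8% after scaling by the median of ratios and 64.4% by the sum of other genes. Of the feeding calls 48.7% were higher, against 36.7% by that sum. The direction turned for Ppy between genotypes, to 0.011 and 0.0139 under these scalings, and for Sst with refeeding, to -0.0128 by that sum. The cause was not tested.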
